A study of Mus musculus with 21 samples.

Results

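A set of 8 genes of arginine handling, itaconate synthesis and alternative activation in myeloid cells was followed through brain injury in mice. The members were Arg1, Nos2, Ass1, Asl, Slc7a2, Acod1, Chil3 and Retnla, and all 8 were found, by gene symbol, among the 45706 genes of the deposited table. They were chosen with earlier results of these data known, so the set cannot be read as picked blind to the data. Each passed the filter of at least 5 counts over all libraries, as did 23815 genes in total. Gene symbols came from GENCODE release M21 (GRCm38).

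RNA was sequenced in 21 libraries, 3 in each of 7 groups, from male C57BL/6 mice of 17 to 24 weeks, and every library pooled tissue around the lesion from 2 brains. Mice were wild type (WT) or Fgg γ390–396A, a germline knock-in whose fibrinogen lacks the γ-chain motif at residues 390 to 396 that the CD11b/CD18 integrin binds but still clots. Injury was controlled cortical impact (CCI), and sham animals were WT mice with incision and craniotomy but no impact. No day after surgery is recorded for the sham libraries, which served as the baseline for both times, so these comparisons are not known to be matched in time. CD45low CD11b+ microglia were sorted from sham mice and from both genotypes at 1 d and 7 d post-CCI, and CD45hi CD11b+ cells, labelled macrophages and called infiltrating myeloid cells here, from both genotypes at 1 d. There was no mutant sham group, so injury and genotype cannot be told apart where mutant microglia are set against sham, and no infiltrating cells were sequenced at 7 d.

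Arginine sits at a branch point in activated myeloid cells. Slc7a2 is a cationic amino acid transporter that brings arginine in, Arg1 is the arginase that cleaves it to ornithine and urea, and Nos2 is the inducible nitric oxide synthase that turns it into nitric oxide and citrulline. Ass1 (argininosuccinate synthase) and Asl (argininosuccinate lyase) rebuild arginine from citrulline. Acod1 (also called Irg1) makes itaconate from the tricarboxylic acid (TCA) cycle intermediate cis-aconitate and is induced by Toll-like receptor signals. Chil3 (Ym1), a chitinase-like protein, and Retnla (Fizz1), a resistin-like protein, are classical markers of alternative activation by interleukin-4 in mouse macrophages, and Chil3 is also made by neutrophils and their precursors.

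Promoter sequences are shown because the members differed widely in where they were detected. The set of RefSeq promoters used here (build GRCm38.p6) held an entry for 4 of the 8 members. Each line below gives the 250 bases before the RefSeq start, 5′ to 3′ on the gene's own strand, with motif matches in capitals. Motif positions are counted from that start. For Acod1, Retnla and Ass1 the GENCODE gene start, given further on, lies inside the window, so positions would differ if counted from it.
Acod1 (chr14:103046762-103047011, plus strand): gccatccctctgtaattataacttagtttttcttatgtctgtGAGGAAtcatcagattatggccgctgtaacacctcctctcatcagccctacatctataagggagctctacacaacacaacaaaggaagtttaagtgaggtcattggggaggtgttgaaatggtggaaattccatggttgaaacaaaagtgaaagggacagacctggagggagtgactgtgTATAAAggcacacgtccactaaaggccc
Chil3 (chr3:106167565-106167814, minus strand): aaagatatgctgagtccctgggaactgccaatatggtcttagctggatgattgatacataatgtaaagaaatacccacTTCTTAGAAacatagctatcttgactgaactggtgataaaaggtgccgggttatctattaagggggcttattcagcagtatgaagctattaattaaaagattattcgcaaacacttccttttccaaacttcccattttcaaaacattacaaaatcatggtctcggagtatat
Retnla (chr16:48842359-48842608, plus strand): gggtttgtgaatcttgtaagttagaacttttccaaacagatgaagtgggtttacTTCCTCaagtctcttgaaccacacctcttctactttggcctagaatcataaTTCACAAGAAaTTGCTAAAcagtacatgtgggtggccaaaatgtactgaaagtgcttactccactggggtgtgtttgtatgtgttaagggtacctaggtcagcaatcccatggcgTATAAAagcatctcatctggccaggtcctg
Ass1 (chr2:31470020-31470269, plus strand): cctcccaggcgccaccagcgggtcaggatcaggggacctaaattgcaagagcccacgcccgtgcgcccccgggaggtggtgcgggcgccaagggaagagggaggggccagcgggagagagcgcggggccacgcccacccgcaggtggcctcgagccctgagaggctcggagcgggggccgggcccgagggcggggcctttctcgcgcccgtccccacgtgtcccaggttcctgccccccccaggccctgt
Motifs were searched on both strands, and the shares are over the same window of 32536 promoters. Acod1 held TATAAA at positions −28 to −23 from its start, found in 12.3% of all promoters, and GAGGAA, the core bound by PU.1, at −208 to −203, found in 23.4%. In Chil3 the GAS element TTCNNNGAA stood at −172 to −164, found in 7.04% of promoters. Retnla held the STAT6 spacing, TTC and GAA 4 bases apart, at −145 to −136 (5.89% of promoters), the C/EBP motif TTGCNNAA at −134 to −127 (9.57%), TATAAA at −30 to −25 and GAGGAA on the other strand at −196 to −191. Ass1 held none of the motifs searched and had 75.6% G and C bases, against 36.4% in Chil3. The NF-κB consensus, present in 7.28% of promoters, matched none of the 4 windows. A match is a string of letters and not a measured binding site.

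Levels are given as CPM, counts scaled to a common library size after TMM normalization. Transcript length had already been divided out of the deposited counts, so levels can be compared between genes. Library totals ran from 18897000 to 51875800 counts, of which ribosomal RNA genes took 43.0% to 58.5%. A nominal floor of 3 counts equalled 0.0448 to 0.158 CPM. It is nominal because the deposited counts are scaled and were rounded here, so a count is not a read. A count of 0 therefore sets no exact limit on the reads of a gene. Fgg stood at 0 counts in every WT and sham library and at 12, 20 and 1 counts in all in mutant microglia at 1 d, mutant microglia at 7 d and mutant infiltrating cells. Since the mutation changes residues of the gene and does not remove it, these few counts do not test the genotype. A list of 10 microglia markers summed to 10781 to 12139 CPM in sham microglia, 3827 to 5170 and 5064 to 6486 CPM in WT and mutant microglia at 1 d, 6693 to 7607 and 7323 to 8508 CPM at 7 d, and 427 to 1039 CPM in infiltrating cells. A list of 9 monocyte and macrophage markers summed to 97.4 to 993 CPM in microglia and 7933 to 10708 CPM in infiltrating cells. Infiltrating libraries also carried 2516 to 12997 CPM of 10 neutrophil markers, so the CD45hi CD11b+ gate was not made up of macrophages alone. In these bulk samples, fewer cells of a type and less RNA per cell cannot be told apart.

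**Figure D1:**
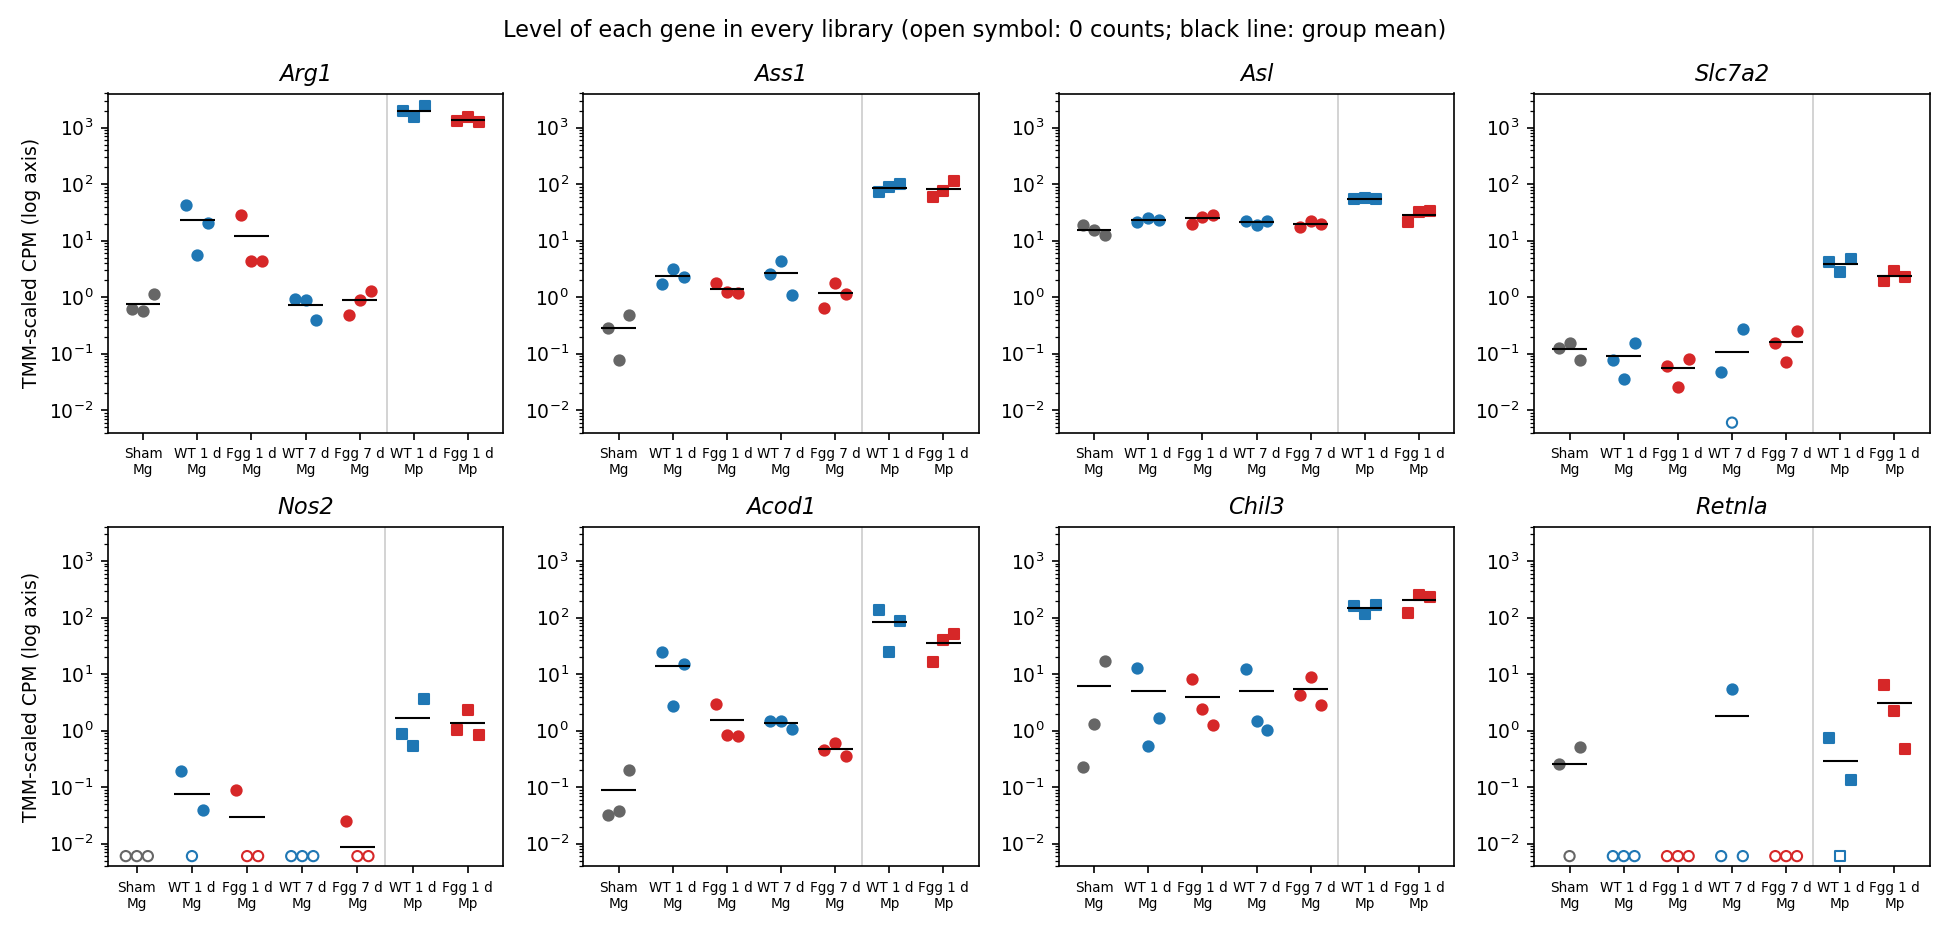
Level of each of the 8 genes in all 21 libraries (TMM-scaled CPM, log axis). Circles are microglia (Mg), squares infiltrating myeloid cells (Mp), grey sham, blue WT, red Fgg γ390–396A (Fgg), black lines group means, and open symbols on the lowest line libraries at 0 counts. Arg1 reached 1256 to 2450 CPM in infiltrating cells, while Nos2 stayed at or below 3.65 CPM everywhere.

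Arg1 (ENSMUSG00000019987, GRCm38 chr10:24915221-24927484, minus strand) was the most abundant member in infiltrating myeloid cells and was low in sham microglia. Sham microglia held 0.606, 0.569 and 1.13 CPM of it. WT microglia at 1 d post-CCI held 42.3, 5.61 and 20.6 CPM, and Fgg γ390–396A microglia 28.1, 4.28 and 4.34 CPM. At 7 d the WT values were 0.908, 0.894 and 0.386 CPM and the mutant values 0.487, 0.897 and 1.25 CPM. Every library of both genotypes at 1 d was above every sham library, and at 7 d both genotypes overlapped sham. The difference from sham at 1 d was a log2 fold change of 4.86 ± 0.757 (SE) in WT microglia (adjusted p = 0.000119) and 3.97 ± 0.734 in mutant microglia (adjusted p = 0.00105). Without mutant replicate 1, the library at 28.1 CPM, the mutant value was 2.45 (adjusted p = 0.00705).

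Acod1 (ENSMUSG00000022126, chr14:103046977-103056573, plus strand) had the largest injury change of the members in WT microglia at 1 d. Sham libraries held 0.0319, 0.0380 and 0.201 CPM, at or near the limit of detection. At 1 d post-CCI the 3 WT microglia libraries reached 24.4, 2.68 and 14.8 CPM and the 3 mutant libraries 2.95, 0.831 and 0.804 CPM. At 7 d Acod1 stood at 1.48, 1.5 and 1.08 CPM in WT and 0.461, 0.610 and 0.359 CPM in mutant microglia. All injured groups lay above sham without overlap. The log2 fold change against sham was 7.07 ± 0.967 in WT microglia at 1 d (adjusted p = 3.05e-05), 3.94 ± 0.969 in mutant microglia at 1 d (adjusted p = 0.0109), 3.71 ± 1.00 in WT at 7 d (adjusted p = 0.0541, not called) and 2.21 ± 1.08 in mutant at 7 d (adjusted p = 0.663, not called).

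Ass1 (ENSMUSG00000076441, chr2:31470207-31520672, plus strand) rose in WT microglia and was still higher at 7 d. Its levels were 0.287, 0.0759 and 0.478 CPM in sham, 1.68, 3.08 and 2.22 CPM in WT at 1 d and 2.53, 4.31 and 1.08 CPM in WT at 7 d. Fgg γ390–396A microglia held 1.79, 1.21 and 1.17 CPM at 1 d and 0.640, 1.79 and 1.15 CPM at 7 d. No injured microglia library fell into the range of sham. Log2 fold changes were 2.96 ± 0.528 (WT, 1 d, adjusted p = 0.000437), 3.14 ± 0.529 (WT, 7 d, adjusted p = 0.00192), 2.23 ± 0.528 (mutant, 1 d, adjusted p = 0.00811) and 1.98 ± 0.540 (mutant, 7 d, adjusted p = 0.114, not called). Of the 31-base words in Ass1 transcripts, 43.1% also occur in transcripts of other genes, mostly its processed pseudogene Gm5424, so reads can be split between them. Gm5424 itself was counted at 6.43 ± 2.83 CPM (SD, n = 3) in WT infiltrating cells and at or below 0.382 CPM in microglia.

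Asl (ENSMUSG00000025533, chr5:130011258-130029247, minus strand), the next enzyme of the same cycle, was the steadiest member in microglia. It stood at 15.7 ± 3.14 CPM (SD, n = 3) in sham microglia and at group means between 19.5 and 24.7 CPM after injury. The log2 fold changes at 1 d, 0.56 ± 0.195 in WT (adjusted p = 0.0567) and 0.65 ± 0.195 in mutant mice (adjusted p = 0.0375), stayed under the fold needed for a call, although neither group overlapped sham at 1 d.

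Nos2 (ENSMUSG00000020826, chr11:78920787-78960254, plus strand) was barely detected in microglia. All 3 sham and all 3 WT 7 d libraries were at 0 counts, the WT 1 d libraries held 5, 0 and 1 counts, the mutant 1 d libraries 6, 0 and 0 counts, and the mutant 7 d group 1 count in all. Slc7a2 (ENSMUSG00000031596, chr8:40862396-40922308, plus strand) stood at or below 0.271 CPM in each microglia library, with 7 to 15 counts summed over a group. Slc7a1, another arginine transporter of that family, stood at 4.28 ± 1.73 CPM in sham and 14.5 ± 1.26 CPM in WT microglia at 1 d (SD, n = 3, log2 fold change 1.75 ± 0.300, adjusted p = 0.000294). The other synthases, Nos1 and Nos3, had 8 and 7 counts over all 21 libraries.

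Chil3 (ENSMUSG00000040809, chr3:106147554-106167564, minus strand) differed more between libraries of a group than between groups of microglia. Sham libraries held 0.223, 1.29 and 17.1 CPM, WT libraries 12.7, 0.543 and 1.64 CPM at 1 d and 12.5, 1.46 and 1.00 CPM at 7 d, and mutant libraries 8.04, 2.42 and 1.25 CPM at 1 d and 4.30, 8.97 and 2.80 CPM at 7 d. In each of the 5 microglia groups the library highest in Chil3 was also the one highest in neutrophil markers. Log2 fold changes against sham ran from −0.65 to −0.23 with standard errors of 1.12 to 1.13, and none was called. Without sham replicate 3 these changes turned positive in every injured group (2.43 to 2.85), still uncalled. Chil3 shares 41.5% of its 31-base words with other genes, mainly Chil4, which had 6 counts over all libraries.

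Retnla (ENSMUSG00000061100, chr16:48842551-48844461, plus strand) was found in few microglia libraries. Sham held 0.255, 0 and 0.503 CPM, a single WT 7 d library held 5.45 CPM beside 2 at 0, and all libraries of WT and mutant microglia at 1 d and of mutant microglia at 7 d were at 0 counts. Its relative Retnlg, a resistin-like gene of neutrophils, ranged from 0 to 42.5 CPM over the microglia libraries.

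A gene was called changed after injury, between cell gates or between times at an adjusted p under 0.05 with a log2 fold change above 1 in size. Against sham, 3 of 8 members were called higher in WT microglia at 1 d (Arg1, Ass1 and Acod1), where 8.05% of all tested genes were called higher and 4.21% lower. The same 3 genes were called in Fgg γ390–396A microglia at 1 d, where 5.49% of all genes were called higher and 1.15% lower, a split that moved from 82.7% to 71.7% higher among calls with DESeq2 size factors. DESeq2 called 4 members in each genotype at 1 d, adding Retnla, which was at 0 counts in all of these 1 d libraries. At 7 d edgeR called 1 member in WT microglia, Ass1, and DESeq2 called Acod1 as well (3.82, adjusted p = 0.000271), with 1.93% of all genes higher and 0.0924% lower. At 7 d in mutant microglia edgeR called 0 members, with 1 at an unadjusted p under 0.05 (Ass1), and DESeq2 called 2 (Ass1 and Retnla, the latter at 0 in all mutant libraries), while 0.630% of all genes were higher and 0.0336% lower. The median log2 fold change of the 8 members was 1.76 in WT and 1.44 in mutant microglia at 1 d, and that of all tested genes was 0 in both. The 4 comparisons share the 3 sham libraries.

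Several of these calls turned on single libraries or settings. Acod1 in WT at 7 d was also called by edgeR under filterByExpr (adjusted p = 0.048) and with no filter (adjusted p = 0.0428). Acod1 in mutant microglia at 1 d lost its call without mutant replicate 1 (log2 fold change 2.98, adjusted p = 0.0761), without sham replicate 1 (adjusted p = 0.0596) and without sham replicate 2 (adjusted p = 0.053). Without the library highest in neutrophil markers of each microglia group, an alternative chosen after seeing the data, Arg1 and Ass1 kept their calls in both genotypes at 1 d and Ass1 in WT at 7 d, and Acod1 kept its call in WT at 1 d (log2 fold change 7.80) but lost it in mutant microglia (4.33, adjusted p = 0.0769). In a fit of the compared groups alone, the call of Ass1 was lost in WT at 7 d (adjusted p = 0.0858) and in mutant microglia at 1 d (adjusted p = 0.105).

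**Figure D2:**
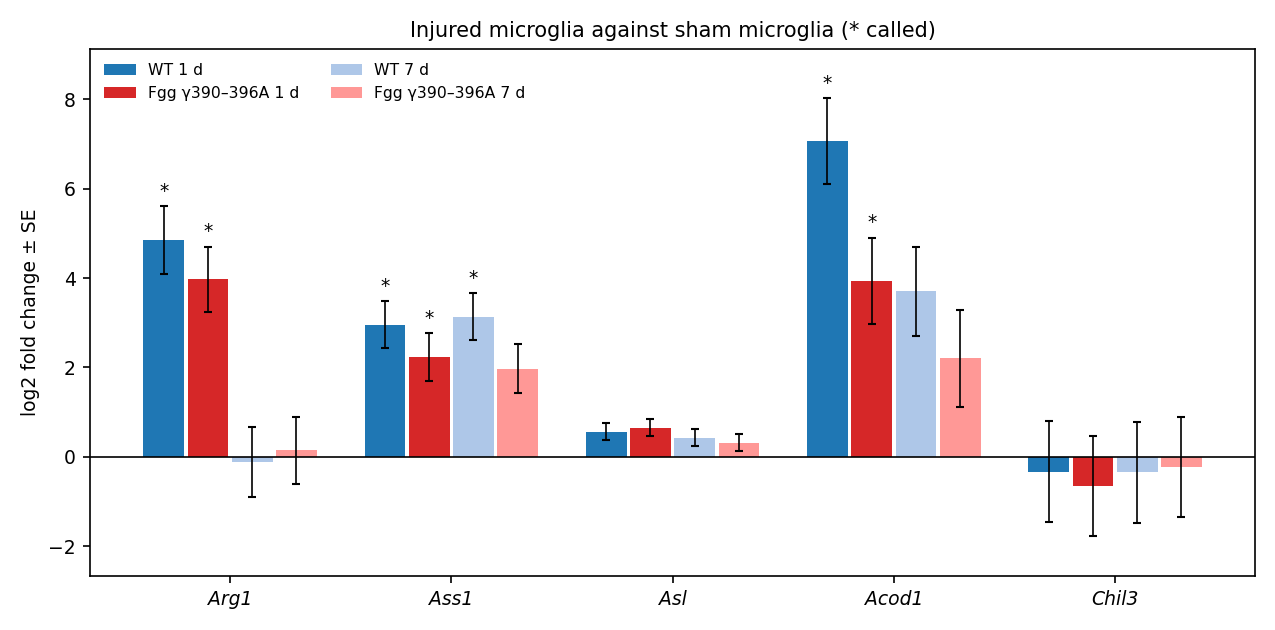
Log2 fold change against sham microglia (y axis) of the 5 members with enough counts for a fold in every comparison, with bars for each genotype and time, error bars of 1 SE and an asterisk for a called change. Arg1 and Acod1 stood highest at 1 d, at 4.86 and 7.07 in WT microglia, and Arg1 was back near 0 at 7 d.

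Between 1 d and 7 d, Arg1 fell by 4.97 ± 0.777 on the log2 scale in WT microglia (adjusted p = 0.000279) and by 3.83 ± 0.730 in mutant microglia (adjusted p = 0.00288), or by 2.31 without mutant 1 d replicate 1 (adjusted p = 0.0164). Acod1 fell by 3.36 ± 0.739 in WT microglia (adjusted p = 0.0048), and the difference in mutant microglia was −1.73 ± 0.779 (adjusted p = 0.267). Ass1 differed by 0.18 ± 0.443 in WT (adjusted p = 0.92). In WT, 2 of 8 members were called lower at 7 d, against 4.38% of all genes lower and 2.68% higher. There DESeq2 called 3 members, adding Retnla, which rested on a single WT 7 d library at 5.45 CPM. In mutant microglia 1 was called lower, against 2.88% lower and 0.663% higher.

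The marker levels of other cells moved with part of these values. In WT microglia at 1 d, neutrophil markers summed to 775, 123 and 510 CPM in replicates 1 to 3, in the same order as Arg1 (42.3, 5.61 and 20.6 CPM) and Acod1 (24.4, 2.68 and 14.8 CPM). In mutant microglia at 1 d the sums were 338, 52.5 and 23.1 CPM, and replicate 1 was again the highest for both genes. Expressed as a share of the mean in infiltrating cells of the same genotype, the 3 WT 1 d microglia libraries held 2.13%, 0.283% and 1.04% for Arg1, 1.94%, 3.55% and 2.57% for Ass1, 29.5%, 3.24% and 17.9% for Acod1, 9.39%, 1.5% and 6.19% for neutrophil markers, and 6.69%, 3.26% and 2.64% for monocyte and macrophage markers. Sham replicate 3 held 630 CPM of neutrophil markers and 1.13 CPM of Arg1. At 7 d, monocyte and macrophage markers were at 766 to 993 CPM in WT microglia, above the 262 to 664 CPM at 1 d, and Arg1 was at or below 0.908 CPM. As shares of the same 1 d infiltrating mean, WT microglia at 7 d held 2.92%, 4.97% and 1.25% for Ass1. Their shares for monocyte and macrophage markers were 10%, 8.89% and 7.71%. In mutant microglia at 7 d these shares were 0.779% to 2.18% for Ass1 and 5.53% to 7.86% for the markers. No infiltrating cells of sham mice or of 7 d were sequenced, so Arg1 and Ass1 in such cells are not known. Microglia markers moved with injury too, with both genotypes at 1 d below sham without overlap, and the ribosomal RNA share was 43.4% to 47.8% in sham, 50.6% to 58.5% in WT and 47.1% to 52.4% in mutant microglia at 1 d. With ribosomal RNA genes left out, the Arg1 change at 1 d was 4.86 in WT and 3.97 in mutant microglia. What part carried-over cells, the lower microglia marker sums and the ribosomal RNA share had in Arg1, Acod1 and Ass1 of microglia was not tested.

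**Figure D3:**
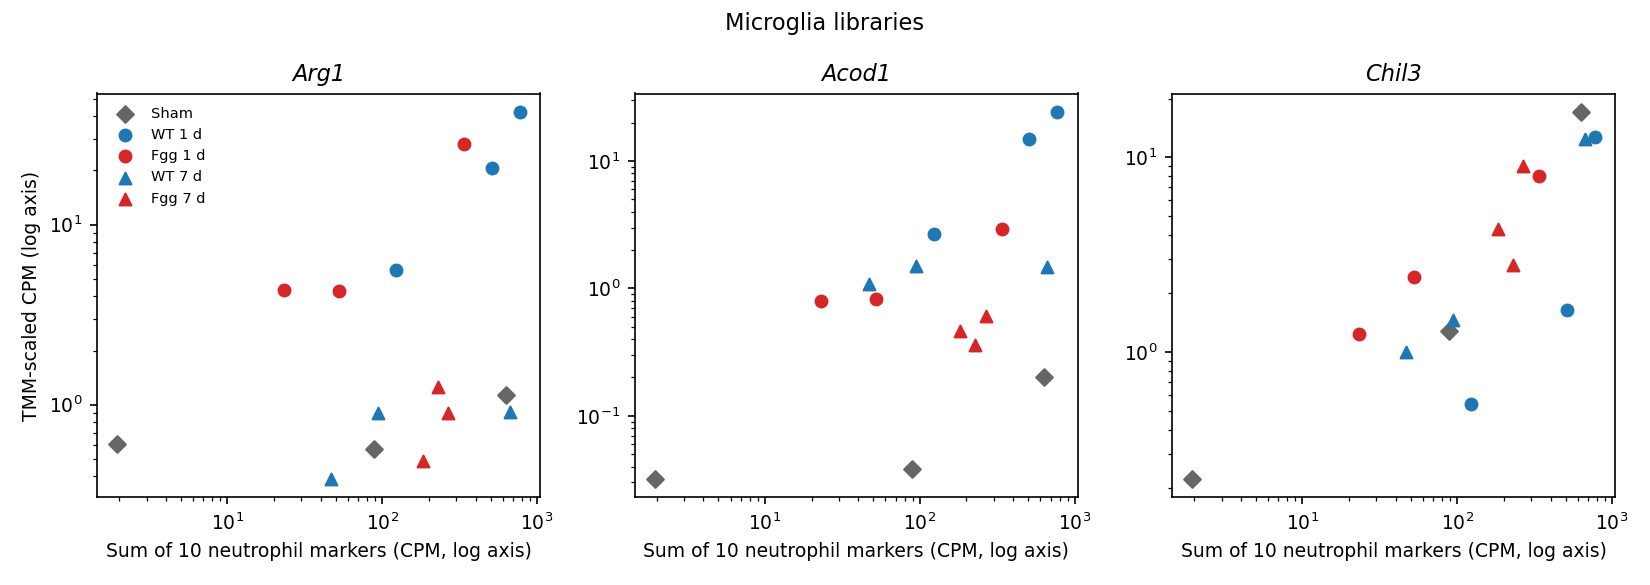
Arg1, Acod1 and Chil3 (y axes, TMM-scaled CPM, log) against the sum of 10 neutrophil markers (x axes, CPM, log) in the 15 microglia libraries, with diamonds for sham, circles for 1 d, triangles for 7 d, blue for WT and red for Fgg γ390–396A. Chil3 was highest, at 17.1 CPM, in the sham library with 630 CPM of neutrophil markers, and Arg1 in that library was 1.13 CPM.

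Genotype was compared within each cell gate and time, at an adjusted p under 0.1 and a log2 fold change above 1 in size. In microglia at 1 d, Acod1 showed the largest difference of the members, with 24.4, 2.68 and 14.8 CPM in WT against 2.95, 0.831 and 0.804 CPM in mutant libraries, so that the highest mutant library lay just above the lowest WT library. Its log2 fold change was −3.13 ± 0.711, with an unadjusted p of 3e-04 that became 0.275 after adjustment over all genes by edgeR, and it was not called. DESeq2 did call it (−3.20, adjusted p = 0.0026), as did edgeR without WT replicate 2 (−3.62, adjusted p = 0.0604), and over the alternatives tried its adjusted p ran from 0.0026 to 1. Over those alternatives the log2 fold change ran from −4.08 to −2.45. Arg1 differed by −0.89 ± 0.621 (adjusted p = 0.89), a value that was −2.40 without mutant replicate 1 and −0.084 without WT replicate 1. Ass1 differed by −0.72 ± 0.446 (adjusted p = 0.89) and Asl by 0.09 ± 0.194 (adjusted p = 1). Neutrophil marker sums differed in the same direction, at 123 to 775 CPM in WT and 23.1 to 338 CPM in mutant microglia, and their part in the Acod1 difference was not tested. Without the library highest in these markers in each group, the Acod1 log2 fold change was −3.47 (adjusted p = 0.249). The libraries left held 123 and 510 CPM of these markers in WT and 52.5 and 23.1 CPM in mutant microglia. This fit therefore does not take the marker difference away. In this comparison edgeR called 0 of 8 members and 0.0546% of all genes, 1 member had an unadjusted p under 0.05, and DESeq2 called 1.

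In microglia at 7 d the 3 mutant libraries lay below the 3 WT libraries for Acod1 (0.359 to 0.610 against 1.08 to 1.5 CPM), with a log2 fold change of −1.5 ± 0.810 (adjusted p = 1). Ass1 differed by −1.16 ± 0.460 (unadjusted p = 0.0206, adjusted p = 1) with overlapping libraries. By edgeR 0 members and 0.0378% of all genes were called at 7 d, with 2 members at an unadjusted p under 0.05 (Ass1 and Retnla), and DESeq2 called 1, Retnla, which rested on the single WT library at 5.45 CPM.

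In infiltrating myeloid cells, Asl separated the genotypes without overlap, at 53.5, 57.4 and 55.2 CPM in WT and 21.3, 32 and 33 CPM in Fgg γ390–396A libraries. The log2 fold change was −0.95 ± 0.195 with an adjusted p of 0.0511, below the threshold of 0.1, but its size fell short of the bar of 1 and it was not counted as called. Leaving out mutant replicate 2 (−1.03, adjusted p = 0.0756) or replicate 3 (−1.06, adjusted p = 0.0237) brought it over the bar. Arg1 stood at 1988, 1506 and 2450 CPM in WT and 1304, 1547 and 1256 CPM in mutant cells (log2 fold change −0.53 ± 0.612, adjusted p = 0.811), and Acod1 at 137, 24.2 and 86.4 against 16.2, 40.0 and 51.3 CPM (−1.21 ± 0.646, adjusted p = 0.468). Chil3 was 158, 114 and 169 CPM in WT and 122, 249 and 233 CPM in mutant cells (0.45 ± 1.08, adjusted p = 1). Retnla stood at 0.750, 0 and 0.135 CPM in WT and 6.41, 2.22 and 0.476 CPM in mutant cells (3.28 ± 2.05, adjusted p = 0.533). In these cells edgeR called 0 members and 0.453% of all genes, 1 member had an unadjusted p under 0.05 (Asl), and DESeq2 called 0. The marker sums of the 2 genotypes were not level, at 3467 to 12997 CPM in WT and 2516 to 5724 CPM in mutant libraries for neutrophils and at 9326 to 10708 against 7933 to 8487 CPM for monocytes and macrophages, and their part in these differences was not tested.

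**Figure D4:**
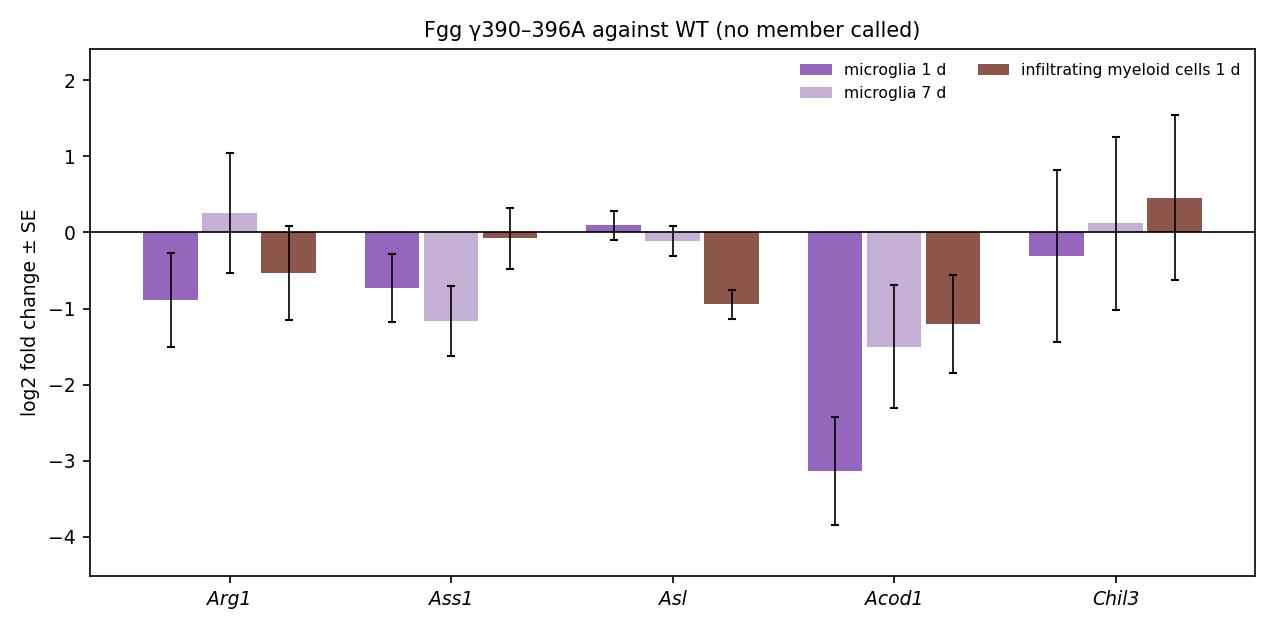
Log2 fold change of Fgg γ390–396A against WT (y axis) for 5 members in microglia at 1 d and 7 d and in infiltrating myeloid cells at 1 d, with error bars of 1 SE. No bar met the rule for a call, and Acod1 in microglia at 1 d was lowest at −3.13.

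Whether the genotype effect differed between times or between gates was tested by an interaction at an adjusted p under 0.1. Between 7 d and 1 d in microglia edgeR called 0 members and 0% of all genes, 0 members had an unadjusted p under 0.05, and DESeq2 called 1 (Retnla, detected in 1 of the 4 groups). Between infiltrating cells and microglia edgeR called 0 members and 0.0462% of all genes. For Asl this difference of differences was −1.04 ± 0.274 (unadjusted p = 0.00123, adjusted p = 0.457), and DESeq2 called it (−0.98, adjusted p = 0.0434), the 1 member at an unadjusted p under 0.05 and the 1 called by DESeq2.

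Infiltrating myeloid cells were compared with microglia of the same genotype at 1 d, and most members were higher in infiltrating cells. Arg1 was higher in infiltrating cells by 6.44 ± 0.775 on the log2 scale in WT (adjusted p = 8.58e-06) and 6.79 ± 0.787 in mutant mice (adjusted p = 4.35e-06). Ass1 was higher by 5.21 ± 0.491 and 5.86 ± 0.505, with 71.0, 88.1 and 101 CPM in WT and 59.7, 74.3 and 112 CPM in mutant infiltrating cells. Chil3 was higher by 4.88 ± 1.29 (adjusted p = 0.0122) and 5.65 ± 1.33 (adjusted p = 0.00431). Each of these genes was higher in all 3 infiltrating libraries than in any microglia library of the same genotype.

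Slc7a2, near the limit of detection in microglia, stood at 4.26, 2.79 and 4.64 CPM in WT and 1.94, 2.89 and 2.24 CPM in mutant infiltrating cells, a log2 difference of 5.39 ± 0.981 and 5.35 ± 0.981 from microglia. Acod1 was higher by 2.57 ± 0.678 in WT (adjusted p = 0.0122), where the lowest infiltrating library (24.2 CPM) and the highest microglia library (24.4 CPM) overlapped, and by 4.49 ± 0.749 in mutant mice (adjusted p = 0.000227). The WT call was lost without WT infiltrating replicate 1 (1.99, adjusted p = 0.0711). Asl was higher by 1.26 ± 0.196 in WT (adjusted p = 0.000138), while in mutant mice its difference was 0.22 ± 0.194 (adjusted p = 0.438).

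Nos2 reached only 0.871, 0.527 and 3.65 CPM in WT and 1.04, 2.27 and 0.840 CPM in mutant infiltrating cells, so that Arg1 exceeded it in each of the 6 libraries by a wide margin on a scale corrected for transcript length. Its difference from microglia was 4.39 ± 1.54 in WT (adjusted p = 0.0676, not called) and 5.16 ± 1.58 in mutant mice (adjusted p = 0.0282, called). The WT difference was called by DESeq2 (4.53, adjusted p = 0.0236) and by edgeR under filterByExpr (adjusted p = 0.0436). It was also called by edgeR without the microglia libraries highest in neutrophil markers (6.23, adjusted p = 0.0486). The mutant call was lost without mutant microglia replicate 2 (adjusted p = 0.089) or 3 (adjusted p = 0.0861), or without mutant infiltrating replicate 2 (adjusted p = 0.0674). Mean Retnla in mutant infiltrating cells was 25.2-fold the nominal floor of 3 counts in mutant microglia, taking the library with the highest floor. These 3 microglia libraries were at 0, and the difference was called (adjusted p = 0.0334). This call was lost without mutant microglia replicate 1, 2 or 3, all at 0 counts, and without mutant infiltrating replicate 1, the library highest in Retnla.

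In WT mice 6 of 8 members were called higher in infiltrating cells, where 5.61% of all genes were called higher and 6.30% called lower. The mutant comparison had 7 members called higher, against 6.96% of all genes higher and 9.70% lower. DESeq2 called 8 members in WT and 7 in mutant mice. The split over all genes turned with the fit, from 47.1% to 61.4% of calls higher in WT and from 41.8% to 67.5% in the mutant when only the compared groups were fitted, and to 59.2% and 59.0% without the microglia libraries highest in neutrophil markers. The median log2 difference was 5.05 and 5.50 over the members and 0 and −0.13 over all tested genes, the latter moving to −0.01 with DESeq2 size factors. Chil3 in WT lost its call without WT microglia replicate 2 (adjusted p = 0.0528) or 3 (adjusted p = 0.0574).

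**Figure D5:**
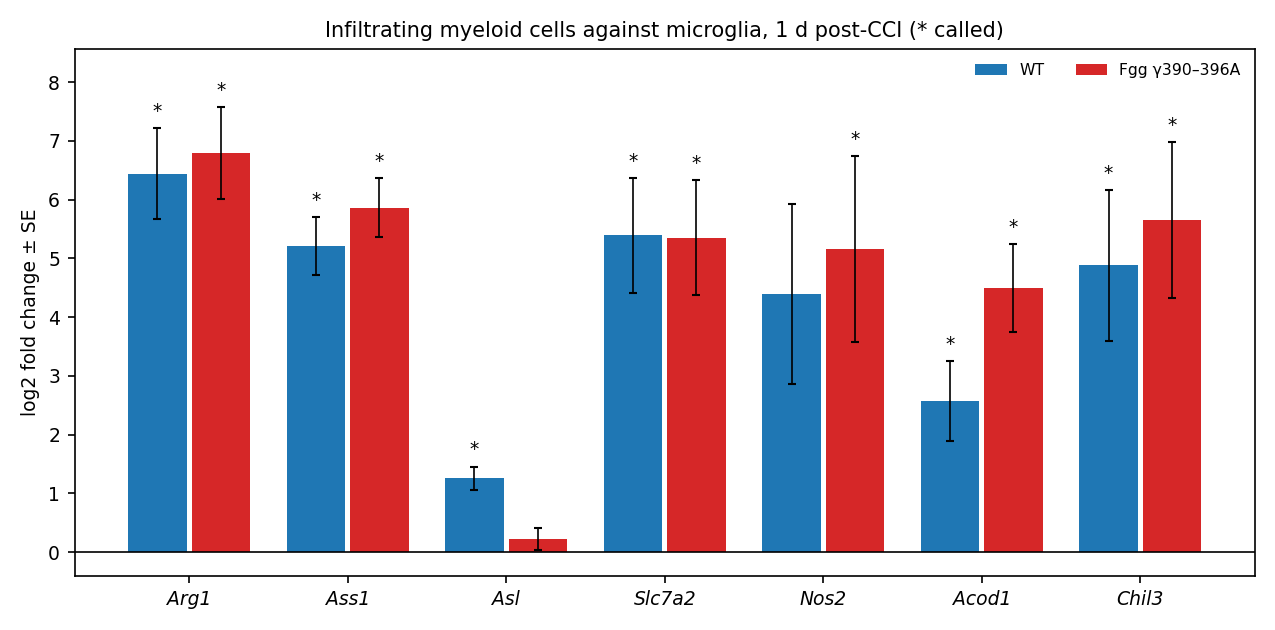
Log2 difference between infiltrating myeloid cells and microglia at 1 d post-CCI (y axis) for 7 members in WT (blue) and Fgg γ390–396A mice (red), with error bars of 1 SE and an asterisk for a called change. Arg1 stood highest at 6.44 and 6.79, and Asl differed from microglia by 1.26 in WT and 0.22 in mutant mice.

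List counts below are to be read against the shares of all tested genes called, which were 8.05% higher and 4.21% lower in WT and 5.49% and 1.15% in mutant microglia at 1 d against sham, and 5.61% and 6.30% in WT and 6.96% and 9.70% in mutant infiltrating cells against microglia. Further genes of arginine, polyamine and nitric oxide metabolism were read from a list of 28, of which 26 were tested. In WT microglia at 1 d, 11 were called higher than sham and 1 lower, with a list median of 0.48 on the log2 scale, and in mutant microglia 6 were higher and 0 lower, with a median of 0.54. Odc1, the ornithine decarboxylase that starts polyamine synthesis from the product of arginase, went from 6.71 ± 0.165 CPM in sham to 37.7 ± 10.4 CPM in WT microglia at 1 d (SD, n = 3, log2 fold change 2.49, adjusted p = 2.77e-05) and 24.0 ± 6.67 CPM in mutant microglia (1.84, adjusted p = 0.000819). Srm, spermidine synthase, rose by 2.15 in WT and 1.94 in mutant microglia, and Gatm, which uses arginine for creatine synthesis, by 1.84 and 1.78. Sat1, which acetylates polyamines for their breakdown, fell by 1.43 in WT microglia (adjusted p = 0.00523).

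At 7 d against sham, 0 of this list were called higher and 1 lower (Spr) in WT, against 1.93% and 0.0924% of all genes. In mutant microglia 0 were called (2 at an unadjusted p under 0.05, 0 by DESeq2), against 0.630% higher and 0.0336% lower. The list medians were 0.10 in WT and −0.02 in mutant microglia. From 1 d to 7 d 7 were lower and 1 (Sat1) higher in WT, against 4.38% and 2.68% of all genes. In mutant microglia 5 were lower and 1 higher, against 2.88% and 0.663%. In infiltrating cells 4 were higher and 3 lower than in WT microglia, and 3 higher and 3 lower in the mutant. Arg2, the mitochondrial arginase, was the largest, at 25.0 ± 9.67 CPM in WT infiltrating cells against 0.740 ± 0.495 CPM in WT microglia (log2 difference 5.07 ± 0.824, adjusted p = 0.00021). Gch1, which makes the tetrahydrobiopterin cofactor of nitric oxide synthases, was higher by 3.03 in WT and 3.35 in mutant mice, and Gatm stood lower in WT infiltrating cells (log2 difference −2.15, adjusted p = 2.72e-06).

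A list of 26 genes of the TCA cycle and itaconate had 8 called higher in WT microglia at 1 d (list median 0.86) and 4 in mutant microglia (0.65), with 0 lower in both. Fh1, fumarate hydratase, rose from 9.14 ± 0.524 CPM in sham to 31.1 ± 9.30 CPM in WT and 32.8 ± 6.65 CPM in mutant microglia (SD, n = 3). Slc13a3, a dicarboxylate transporter that carries itaconate, rose by 2.03 ± 0.527 in WT microglia at 1 d (adjusted p = 0.0101) and fell by 3.51 on the log2 scale from 1 d to 7 d. At 7 d against sham edgeR called 0 in both genotypes, with 4 (WT) and 1 (mutant) at an unadjusted p under 0.05, and DESeq2 called 1 and 0. Over all genes, edgeR called 1.93% higher and 0.0924% lower in WT and 0.630% and 0.0336% in mutant microglia.

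Of 26 further genes of alternative activation, 8 were called higher and 1 lower in WT microglia at 1 d, and 6 higher in mutant microglia, with list medians of −0.02 and −0.40. Those that rose were led by Il1rn, the interleukin-1 receptor antagonist (6.32 ± 0.610 in WT, 4.30 ± 0.559 in mutant), and Ccl22, a chemokine (5.89 ± 0.706 and 4.54 ± 0.682). Pdcd1lg2, a checkpoint ligand at 0 counts in sham, was called higher in WT microglia, with a mean 2.31-fold the nominal floor of sham. Irf4, a transcription factor of that programme, fell by 2.09 ± 0.700 in WT (adjusted p = 0.046). In infiltrating cells 13 of the 26 were higher than in microglia in WT and 17 in mutant mice, with 0 lower, among them Retnlg (4.80 ± 1.42 and 5.59 ± 1.46), which is a neutrophil gene, Mgl2, a macrophage lectin (4.18 ± 1.09 in WT), and Pparg, a lipid-sensing receptor (5.94 ± 1.30 in mutant).

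A list of 17 regulators of Nos2 and Acod1 had 4 called higher and 2 lower in WT microglia at 1 d (list median 0.06) and 3 higher in mutant microglia (−0.05). Tnf, an inflammatory cytokine, rose by 4.46 ± 0.518 in WT and 3.66 ± 0.501 in mutant microglia, and Tlr2, a Toll-like receptor, by 1.42 ± 0.264 and 1.04 ± 0.262. Ifngr1, a chain of the interferon-γ receptor, fell by 1.33 in WT microglia (adjusted p = 0.000126). At 7 d Tnf was still higher than in sham (2.62 in WT, 2.45 in mutant). In infiltrating cells 4 of the 17 were higher than in microglia in each genotype, among them Il1b (4.56 and 4.43) and Cebpb (2.51 and 2.59).

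None of the 4 lists gave a genotype call by edgeR in any of the 3 comparisons. Over all 23815 tested genes, 1208, 795 and 2748 had an unadjusted p under 0.05 in microglia at 1 d, microglia at 7 d and infiltrating cells. The lists held 2, 3 and 1 genes of alternative activation, 0, 0 and 3 of arginine metabolism, 1, 0 and 5 of the TCA cycle, and 1, 1 and 3 of the regulators of Nos2 and Acod1 at that level in the same order, from 26, 26, 26 and 17 genes tested. DESeq2 called 1 gene of alternative activation in microglia at 1 d and 0 otherwise.

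The genes whose pattern over the 21 libraries was most like that of each member were found by Pearson correlation of log2 CPM among 12302 genes above 1 CPM. These libraries fall into 15 of microglia and 6 of infiltrating cells, and the values describe mainly that division. Arg1 was most like Timp1 (r = 0.989) and Clec4d (0.98), Ass1 like Sh3bgrl (0.98) and Bhlhe40 (0.979), Acod1 like Cxcl2 (0.962) and Slfn4 (0.956), and Chil3 like Mmp8 (0.985), a neutrophil collagenase. Asl was most like Bcl2a1b (0.935), Nos2 like Itga1 (0.979), Slc7a2 like Sdc1 (0.959) and Retnla like Gtpbp8 (0.779), the lowest of these values.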

How the data were processed

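Sorted cells from 21 samples were profiled by paired-end RNA sequencing. The authors quantified reads against GRCm38 with salmon inside nf-core/rnaseq. What they deposited were expected counts per gene, scaled so that transcript length is divided out but not normalized between libraries. These estimated counts were rounded here and tested with edgeR 4.0.16 in R 4.3.3, with TMM scaling, quasi-likelihood tests over all 7 groups, at least 5 counts summed over libraries and Benjamini-Hochberg adjustment over 23815 genes. DESeq2 1.42.0 and other settings were alternatives, and the test was also run on simulated data. That simulation gave all genes a single fixed spread, lower than the common biological coefficient of variation of 0.643 estimated in these libraries. It therefore does not show how the test behaves at the spread of these data. Ribosomal RNA genes (356) stayed in the main fit. Of 45706 identifiers, 563 had no GENCODE match. Libraries of a group are independent biological replicates per the study's methods, each a random pool of 2 brains.

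The members, the gene lists and the tests were chosen with earlier results of these data known. Named genes were the 8 members, Fgg, their closest relatives, up to 3 called genes each way of each list with the largest change, and the most similar patterns; Gm5424 was added after its shared sequence was seen.

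Groups share replicate numbers. Whether these pair the libraries was first checked over all 23815 tested genes, as the correlation of same-numbered libraries' deviations from their group means, and no comparison had every pair above 0.1. The check was then repeated over the 12302 genes above 1 CPM, a gene set chosen after the first result was seen, and there mutant and WT microglia at 1 d had every pair above 0.1 (r = 0.372, 0.151 and 0.104, against 0.210, 0.0718 and 0.0567 over all genes). Because the answer depended on the gene set, the numbers were not taken as a pairing. Between gates at 1 d the correlations over the 12302 genes were 0.134, 0.166 and 0.0227 in WT and −0.0133, 0.0516 and 0.00977 in mutant mice. The study's methods do not state whether both gates of a replicate came from the same brains, and the main fit treats them as separate. Replicate pairs all differed beyond counting noise.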

Additional observations from a re-analysis of the deposited data

How the results depend on the processing

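Over 72 pairs of a member and a comparison, 979 values kept their direction and their side of the threshold under an alternative setting, 13 passed it newly, 14 no longer passed it and 54 turned direction, and the cause of these shifts was not tested. With DESeq2, genes called went from 481 to 825 (WT 7 d against sham), from 158 to 347 (mutant 7 d against sham), from 13 to 104 and from 9 to 80 (genotype in microglia at 1 d and 7 d), from 108 to 841 (genotype in infiltrating cells), and from 0 to 33 and from 11 to 259 (interactions with time and gate). DESeq2 called 2 members in each genotype at 7 d against sham and 1 member in each microglia genotype comparison and each interaction. Filtering by edgeR's filterByExpr gave 2 members at 7 d in WT and 176 genes for genotype in infiltrating cells, and no filter gave 2 members at 7 d in WT. A replicate block, which the pairing check did not settle in favour of, gave 2 members at 7 d in WT (Acod1 added), 66 genes for genotype in infiltrating cells and a turn of Nos2 there from −0.28 to 0.055, and no longer called Retnla between gates in mutant mice. A bar of 1.5 on the log2 scale left 1749 of 2920 and 834 of 1582 genes at 1 d in WT and mutant microglia. Fitting only the compared groups gave 0 members at 7 d in WT, 85 genes at 7 d in the mutant, 8, 19 and 7 genes for genotype (microglia 1 d, 7 d, infiltrating cells), 2211 of 3968 genes between gates in the mutant and 0 for the gate interaction. Without the libraries highest in neutrophil markers, chosen after seeing the data, the last 2 counts were 2511 and 0.

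Values that turned direction were mostly of Chil3, none of them called. Chil3 between 7 d and 1 d in WT moved from −0.01 to 0.060 (DESeq2), 0.049 (DESeq2 size factors), 0.015 (filterByExpr), 0.040 (replicate block) and 0.20 (without the neutrophil-high libraries). Without those libraries Chil3 was 0.54 (WT 1 d), 0.74 (WT 7 d), 1.26 (mutant 1 d) and 2.27 (mutant 7 d) against sham, 0.72 for genotype at 1 d and −0.23 for the gate interaction, and Arg1 in WT at 7 d was 0.12.

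Leaving out 1 library at a time, Arg1 ranged from −0.33 to 0.29 (WT 7 d against sham), −0.20 to 0.55 (mutant 7 d against sham), −0.090 to 0.57 (genotype at 7 d) and −0.45 to 1.87 (gate interaction). Ass1 ranged from −0.38 to 0.56 and −0.67 to 0.064 (7 d against 1 d in WT and mutant), −0.37 to 0.17 (genotype in infiltrating cells) and −0.85 to 0.12 (time interaction), Asl from −0.029 to 0.24 (genotype at 1 d), and Nos2 from −0.84 to 0.98 (genotype in infiltrating cells). Chil3 ranged from −2.53 to 2.75 and −2.38 to 2.73 (WT 1 d and 7 d against sham), −1.75 to 2.43 and −0.82 to 2.85 (mutant 1 d and 7 d against sham), −1.42 to 1.88 and −0.47 to 2.12 (genotype at 1 d and 7 d), −2.08 to 2.18 and −0.16 to 1.52 (7 d against 1 d in WT and mutant), and −1.76 to 2.44 and −1.43 to 1.87 (interactions with time and gate). Genes called ranged from 6 (without WT replicate 3) to 89 (without WT replicate 1) for genotype in microglia at 1 d, 65 (without WT replicate 3) to 641 (without mutant replicate 3) for genotype in infiltrating cells, 283 to 486 for WT 7 d against sham, 74 (without sham replicate 2) to 179 for mutant 7 d against sham, 463 (without 1 d replicate 2) to 1163 for mutant 7 d against 1 d, and 0 to 151 for the gate interaction. Members called ranged from 0 to 1 for genotype in microglia at 1 d and in infiltrating cells. At this depth, Nos2 and Slc7a2 in microglia were at or near the nominal floor of 3 counts. Retnla was at 0 counts in most microglia libraries, with 134 counts in WT 7 d replicate 2 and 8 and 20 in sham replicates 1 and 3. No fold between microglia groups is given for these genes.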
